A study of Mus musculus with 108 samples.

Results

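Transthyretin (Ttr) and other genes of the choroid plexus were followed through the brains and kidneys of 6 inbred mouse strains. Of 9 listed genes, 7 had a probe set that the array's probe table assigns to that gene alone, namely Ttr, Kcnj13, Slc4a5, Clic6, Folr1, Kl and Otx2, among 18193 genes tested. Enpp2 and Prlr were not analysed here. Where a gene had several such probe sets, the one with the highest mean signal over the arrays of all 6 tissues was used, whatever its differences between strains.

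The arrays came from a study that set expression beside copy number variation, with 6 tissues of 3 males per strain at 11 to 14 weeks of age. The strains DBA2/J, C57BL/6J, A/J, AKR/J and C3HeB/FeJ were bought from The Jackson Laboratory. The 129S2 mice came from another supplier, Charles River, so that for 129S2 the supplier and the strain cannot be told apart. The labels name no treatment and no engineered allele. Brain means the whole brain here. In brain the C57BL/6J animals were numbers 2, 3 and 4, and in kidney they were numbers 10, 11 and 12. In the other strains most animals gave both tissues. Array numbers are those of the sample titles, and values of a strain are listed in the order of these numbers. For the 129S2 brain arrays and 129S2 kidney array 4, the source names give other animal numbers. A label text also mentions pools. The p-values therefore measure the spread between these arrays.

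The choroid plexus is a sheet of epithelium in the ventricles of the brain that secretes cerebrospinal fluid and passes nutrients, hormones and ions between blood and fluid. Its cells release transthyretin, a carrier of thyroxine and a partner of retinol-binding protein, which the liver also makes in bulk for the plasma. Kcnj13 encodes an inwardly rectifying potassium channel and Slc4a5 a sodium bicarbonate cotransporter of the membrane that faces the fluid, and Clic6 a member of the intracellular chloride channel family. Folr1 encodes folate receptor alpha, which carries folate across the epithelium, and Kl encodes klotho, a coreceptor of the hormone FGF23 that kidney tubules also make. Otx2 encodes a homeobox transcription factor that mice need to form the choroid plexus.

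RefSeq promoter windows of GRCm38.p6 ran from 250 bases before to 50 bases after an annotated start. For 4 of the 7 genes, Ttr not among them, windows were examined, 7 in all. Those of Kcnj13 and Kl are shown because these 2 genes differed between strains in brain and ranked the strains much as Ttr did, and of the 4 Otx2 windows the one with an OTX motif is shown, Otx2 being the transcription factor of the list. They lie at chr1:87394680-87394979 on the minus strand, chr5:150952357-150952656 on the plus strand and chr14:48665060-48665359 on the minus strand. Capitals mark 3 motifs searched on both strands, which are the TATA box, spelled TATAAA, the CCAAT box, spelled by its name, and the core recognised by OTX proteins, spelled TAATCC. No match overlapped another.
Kcnj13: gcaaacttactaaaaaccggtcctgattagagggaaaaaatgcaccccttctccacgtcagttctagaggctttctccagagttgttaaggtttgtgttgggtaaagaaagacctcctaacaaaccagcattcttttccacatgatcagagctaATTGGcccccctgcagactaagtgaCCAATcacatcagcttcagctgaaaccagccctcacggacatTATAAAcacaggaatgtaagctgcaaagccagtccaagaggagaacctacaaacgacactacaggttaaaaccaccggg
Kl: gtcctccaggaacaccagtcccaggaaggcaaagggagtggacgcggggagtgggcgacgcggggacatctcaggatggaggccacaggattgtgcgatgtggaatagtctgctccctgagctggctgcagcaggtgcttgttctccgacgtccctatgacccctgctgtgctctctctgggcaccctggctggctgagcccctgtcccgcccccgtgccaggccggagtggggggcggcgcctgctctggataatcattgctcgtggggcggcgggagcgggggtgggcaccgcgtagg
Otx2: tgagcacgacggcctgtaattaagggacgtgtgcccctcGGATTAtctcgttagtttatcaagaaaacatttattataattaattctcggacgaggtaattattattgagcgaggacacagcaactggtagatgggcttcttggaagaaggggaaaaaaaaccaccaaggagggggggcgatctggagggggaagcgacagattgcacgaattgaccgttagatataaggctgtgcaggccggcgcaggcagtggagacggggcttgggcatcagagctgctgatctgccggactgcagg
The Kcnj13 window held TATAAA starting 29 bases before the start and CCAAT at 71 bases and, on the other strand as ATTGG, at 96 bases before it. The Kl window held none of the 3 motifs and had a GC content of 67.3%, against a median of 52.7% over 32851 promoter windows, while Kcnj13 had 46.0%. The Otx2 window shown held TAATCC on the other strand, as GGATTA, starting 211 bases before the start. Of all windows, 13.6% held TATAAA, 37.4% held CCAAT and 7.06% held TAATCC on either strand, so that each match is one that many promoters share. These matches describe letters in the windows and say nothing of binding.

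Signals are log2 values of Affymetrix probe sets after robust multi-array averaging (RMA), so that differences are log2 ratios of hybridisation signals. The median over the probe sets of an array lay between 6.40 and 6.44 in brain and between 5.79 and 5.90 in kidney. Over the 6 tissues the lowest array median ranged from 4.95 in liver to 6.80 in lung, so levels in different tissues are set side by side only as a description. In 16 of 18 brain arrays and in all 18 kidney arrays, genes that separate strains in the other tissues read as the label says. Those that did not were 2 brain arrays, labelled AKR/J 2 and 129S2 2. Over 30 genes that differed between AKR/J and 129S2 by at least 0.7 log2 units in all 5 other tissues, the signed average was 1.77 and 1.69 in brain arrays AKR/J 1 and 3, against 0.11 and 0.14 in arrays 129S2 1 and 3. It was 0.83 in array AKR/J 2 and 1.26 in array 129S2 2, each nearer to the 2 arrays of the other strain than to those of its own. The reason was not tested, and brain results are therefore given with all 18 arrays and without these 2.

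The 7 genes did not share a tissue in which they were brightest. Ttr gave its highest signals in liver, between 14.28 and 14.46 over 18 arrays, followed by brain with 13.18 to 13.60. Kidney signals of Ttr ran from 7.56 to 13.91, lung signals from 6.55 to 7.20, heart signals from 5.82 to 7.08 and testis signals from 5.96 to 6.33. Strain means of this probe set were 0.54 apart in heart and 0.27 in lung, but those of the other 3 Ttr probe sets were 1.45 to 1.87 apart in heart and up to 1.63 in lung. Kidney was the tissue with the widest span in all 4. The highest signal of an array lay between 14.79 and 14.85 in brain and between 14.99 and 15.13 in liver. Ttr thus stood near the top of the scale in both, and whether this narrowed its spans there was not tested.

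**Figure D1:**
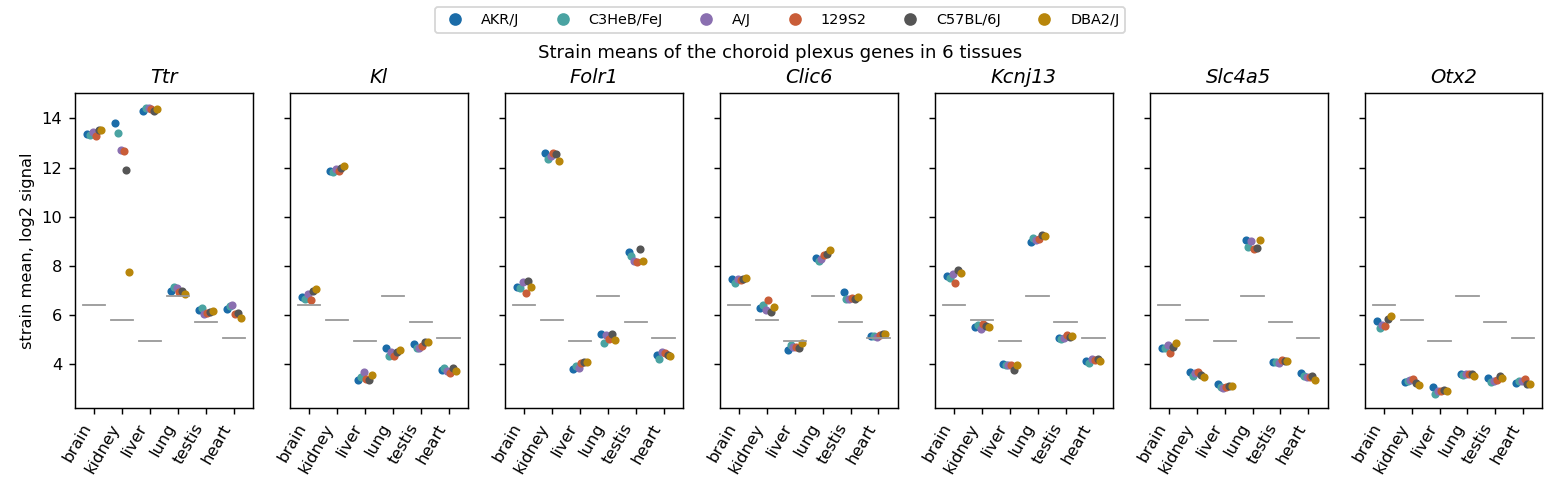
Strain means of the log2 signal (3 arrays each) of the 7 genes in 6 tissues, each colour a strain, with a grey line at the lowest array median of the tissue. For the Ttr probe set used, strain means lie within 0.54 of each other in every tissue but kidney, where AKR/J stands at 13.80 and DBA2/J at 7.77.

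Among the ion transport genes, Kcnj13 averaged 7.61 ± 0.22 in brain and 9.13 ± 0.19 in lung, and Slc4a5 averaged 4.69 ± 0.20 in brain and 8.89 ± 0.19 in lung (SD, n = 18 arrays each). Clic6 averaged 7.44 ± 0.09 in brain, 8.40 ± 0.19 in lung and 6.34 ± 0.18 in kidney. The receptors were brightest in kidney, where Folr1 averaged 12.48 ± 0.14 against 7.18 ± 0.19 in brain and Kl averaged 11.93 ± 0.10 against 6.82 ± 0.21 in brain. Otx2 was the one gene of the 7 that was brightest in brain, at 5.71 ± 0.29, with 2.93 to 3.58 in the other 5 tissues. Apart from Otx2, the listed genes were thus at least as bright in lung, kidney or liver as in brain. In such bulk tissue, fewer cells of a type and less RNA per cell cannot be told apart.

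In brain, 4 of the 7 genes (Kcnj13, Folr1, Kl and Ttr) differed between the 6 strains by limma's F test, adjusted over all 18193 genes by Benjamini-Hochberg, where 23.1% of all genes did. With 16 arrays the same 4 passed, where 27.5% of all genes did. In all 4 the strain with the lowest mean was 129S2, and the highest was C57BL/6J or DBA2/J. Among all genes that passed in brain, 13.0% had their lowest mean in 129S2 with 18 arrays and 20.2% with 16. The differences were small: strain means of the 7 genes spanned 0.21 to 0.54 log2 units, with a median of 0.44, where the median over all genes was 0.19. With 16 arrays they spanned 0.21 to 0.66, with a median of 0.46 against 0.21 over all genes. With 18 arrays, as with 16, none of the 7 passed with strain means at least 1 log2 unit apart, where 1.64% of all genes did with 18.

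Ttr in brain was 13.47, 13.56 and 13.60 in DBA2/J, 13.55, 13.40 and 13.60 in C57BL/6J and 13.46, 13.48 and 13.46 in A/J. It was 13.51, 13.31 and 13.26 in AKR/J, 13.29, 13.37 and 13.37 in C3HeB/FeJ and 13.22, 13.41 and 13.18 in 129S2. The 129S2 arrays lay below all DBA2/J and A/J arrays, while AKR/J spread over most of the range of the other strains. Means spanned 0.27 log2 units (adjusted p = 0.0410). DBA2/J exceeded 129S2 by 0.27 ± 0.07 (SE, adjusted p = 0.0288 by limma over all genes and 15 strain pairs) and C57BL/6J exceeded it by 0.25 ± 0.07 (adjusted p = 0.0457), and of the 15 pairs these 2 passed, where 7.16% of all pairs did. With 16 arrays the span was 0.34 (adjusted p = 0.0172), and A/J also exceeded 129S2, by 0.27 ± 0.07 (adjusted p = 0.0331). The call rested on single arrays: it held without array 129S2 2 (adjusted p = 0.0132), AKR/J 1 (0.0137), C57BL/6J 3 (0.0269), DBA2/J 1 (0.0419) or AKR/J 3 (0.0475), and was lost without any 1 of the other 13, with adjusted p from 0.0528 without AKR/J 2 to 0.0961 without 129S2 1. The number of passing pairs ran from 0 to 3 over the same omissions.

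Kcnj13, the potassium channel gene, had the widest brain span of the 7. It was 7.73, 7.88 and 7.91 in C57BL/6J, 7.68, 7.61 and 7.86 in DBA2/J and 7.68, 7.64 and 7.72 in A/J. It was 7.81, 7.34 and 7.67 in AKR/J, 7.53, 7.45 and 7.52 in C3HeB/FeJ and 7.14, 7.56 and 7.21 in 129S2. Arrays 129S2 1 and 3 were the lowest of all 18, and array 129S2 2 lay among the C3HeB/FeJ and DBA2/J arrays. C57BL/6J exceeded 129S2 by 0.54 ± 0.11 (adjusted p = 0.00574), DBA2/J by 0.41 ± 0.11 (adjusted p = 0.0316) and A/J by 0.38 ± 0.11 (adjusted p = 0.0495). The F test gave an adjusted p of 0.0190. Without arrays AKR/J 2 and 129S2 2 the span was 0.66 (adjusted p = 9.35e-05), and all 5 other strains exceeded 129S2, by 0.32 to 0.66. Leaving out array 129S2 1 or 129S2 3 raised the adjusted p to 0.0693 or 0.0685, and 1 to 5 pairs passed when single arrays were left out, with 5 without 129S2 2 or AKR/J 2 and 1 without 129S2 1, 129S2 3, DBA2/J 1 or DBA2/J 3.

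Folr1, the folate receptor gene, was 7.36, 7.35 and 7.47 in brains of C57BL/6J, 7.40, 7.46 and 7.21 in those of A/J and 7.22, 7.04 and 7.21 in those of DBA2/J. It was 7.32, 6.98 and 7.13 in AKR/J, 7.05, 7.18 and 7.13 in C3HeB/FeJ and 6.80, 7.04 and 6.93 in 129S2. C57BL/6J and A/J lay above all 129S2 arrays. C57BL/6J exceeded 129S2 by 0.47 ± 0.09 (adjusted p = 0.00243) and A/J exceeded it by 0.43 ± 0.09 (adjusted p = 0.00444). The F test gave an adjusted p of 0.00545 with 18 arrays and 0.00193 with 16, and stayed under 0.05 whichever array was left out. With 16 arrays 5 of 15 pairs passed, where 9.29% of all pairs did, and in 4 of them 129S2 was the lower strain. The 2 passing pairs of all 18 arrays became 4 without array AKR/J 2 and 5 without array AKR/J 1.

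Kl, the klotho gene, was 7.01, 6.98 and 7.17 in DBA2/J, 7.07, 6.79 and 7.06 in C57BL/6J and 6.87, 6.84 and 6.92 in A/J. It was 6.76, 6.58 and 6.86 in AKR/J, 6.48, 6.75 and 6.73 in C3HeB/FeJ and 6.54, 6.86 and 6.45 in 129S2. Its 6 strain means fell in the same order as those of Ttr, and no DBA2/J array overlapped the C3HeB/FeJ or 129S2 arrays. DBA2/J exceeded 129S2 by 0.44 ± 0.11 (adjusted p = 0.0170) and C3HeB/FeJ by 0.40 ± 0.11 (adjusted p = 0.0298), and C57BL/6J exceeded 129S2 by 0.36 ± 0.11 (adjusted p = 0.0476). The F test gave an adjusted p of 0.0197 with 18 arrays and 0.00189 with 16, when 5 pairs passed. Without array DBA2/J 3 the adjusted p was 0.0535 and no pair passed, without DBA2/J 1, 129S2 1 or 129S2 3 a single pair passed, and without 129S2 2 there were 6. A second Kl probe set, dim in brain with a mean of 4.54, had A/J highest and C57BL/6J lowest, with a span of 0.16. It did not pass (adjusted p = 0.678 by limma over every single-gene probe set). The order shared with Ttr is thus that of the Kl probe set used.

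The other 3 genes did not pass in brain. Clic6 strain means spanned 0.21, between 7.51 ± 0.13 in DBA2/J and 7.30 ± 0.08 in C3HeB/FeJ (SD, n = 3 each, adjusted p = 0.178 by limma). A second Clic6 probe set, the brighter one in brain with a mean of 8.23, spanned 0.38 between DBA2/J and C3HeB/FeJ and passed (adjusted p = 0.00664 where each gene took its brightest probe set within brain, a choice made after seeing the data). With 16 arrays and every single-gene probe set tested, the second probe set spanned 0.42 between DBA2/J and 129S2 (adjusted p = 0.000649). The 2 probe sets of Clic6 thus fell on different sides of the threshold. Slc4a5 averaged 4.87 ± 0.15 in DBA2/J and 4.45 ± 0.33 in 129S2 (adjusted p = 0.150), and its 129S2 arrays, at 4.77, 4.48 and 4.11, spread more widely than the other 15 arrays together. Without array 129S2 1 the adjusted p of Slc4a5 was 0.0177 and 3 pairs passed. Otx2 averaged 5.95 ± 0.40 in DBA2/J and 5.49 ± 0.08 in C3HeB/FeJ (adjusted p = 0.375), and its A/J arrays, at 5.20, 6.07 and 5.59, covered most of the range of all strains. No pair of strains passed for any of these 3 genes, with 4, 3 and 1 of 15 pairs at an unadjusted p under 0.05 by limma for Clic6, Slc4a5 and Otx2. Without array DBA2/J 1 a single pair passed for Clic6 and for Otx2, as did 1 for Slc4a5 without AKR/J 2. With 16 arrays their adjusted p was 0.196, 0.202 and 0.341. Slc4a5, with a brain mean of 4.69, and Otx2, with one of 5.71, lay below the brain array medians of 6.40 to 6.44. Of all genes, 17.4% and 29.7% had a lower brain mean, and no detection call was used. Their brain values are therefore to be read with caution.

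**Figure D2:**
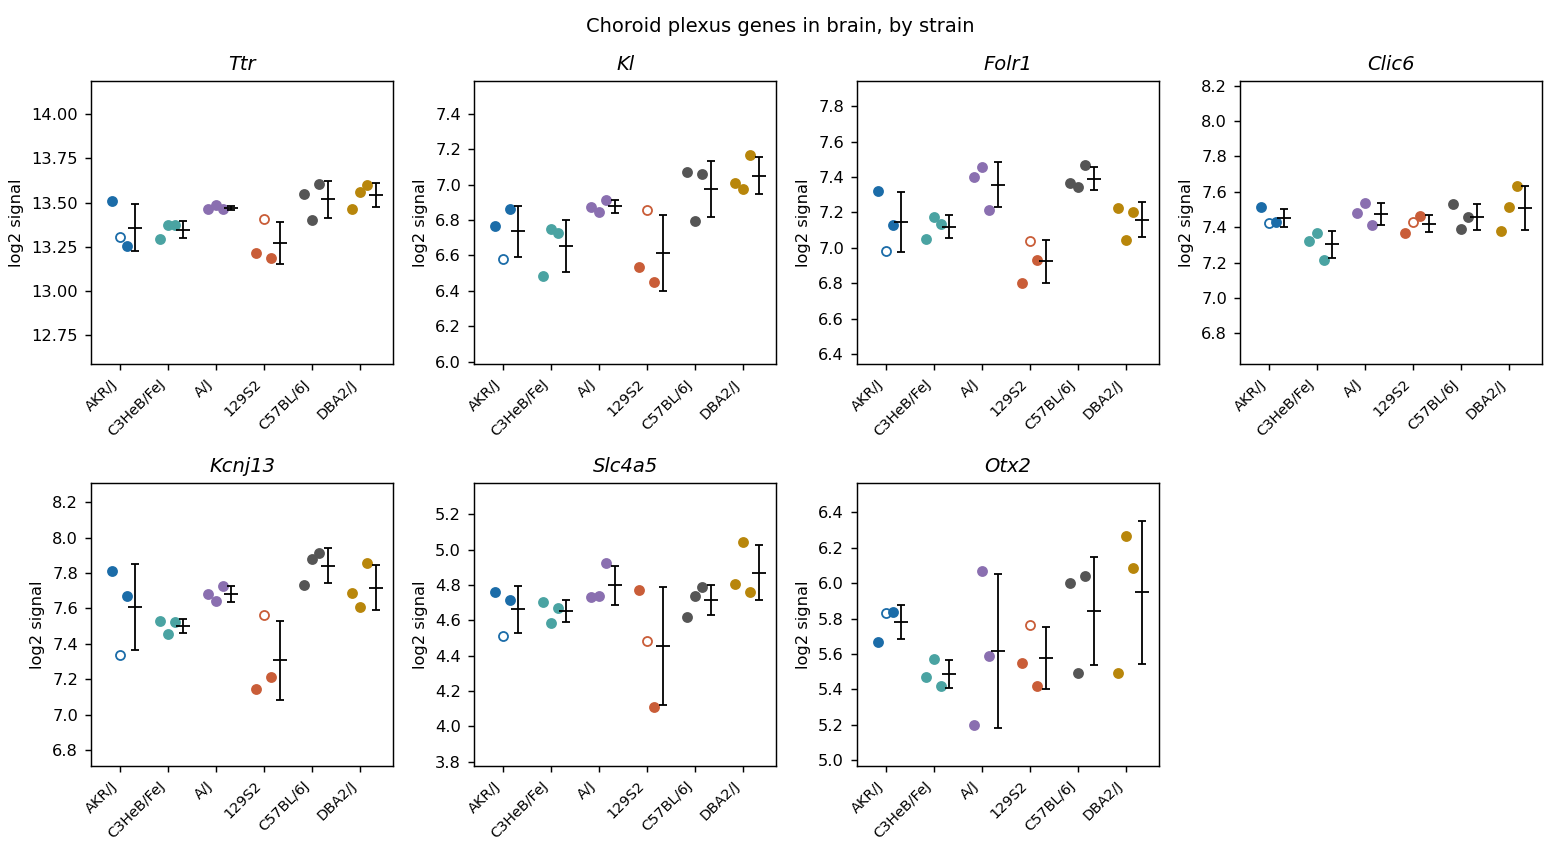
Log2 signal of the 7 genes in each brain array by strain (points) with the strain mean ± SD beside them (n = 3), on axes of equal length. Open points are arrays AKR/J 2 and 129S2 2, and the 2 filled 129S2 points of Ttr, Kcnj13, Folr1 and Kl lie at or near the bottom of their panels.

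With 18 arrays, no 2 strains next to each other in the order of means passed for any of the 7 genes in brain. For Ttr the order was DBA2/J (13.54), C57BL/6J (13.52), A/J (13.47), AKR/J (13.36), C3HeB/FeJ (13.35) and 129S2 (13.27), and the adjusted p between neighbours ran from 0.437 to 0.966. With 16 arrays the order for Ttr was the same and neighbours had adjusted p from 0.272 to 0.892. The one neighbouring pair that then passed was that of Kcnj13 at the bottom of its order, where C3HeB/FeJ exceeded 129S2 by 0.32 ± 0.08 (adjusted p = 0.0120).

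In kidney the 7 genes divided differently: Ttr, Folr1 and Clic6 passed the F test, 3 of 7, where 46.1% of all genes did. Ttr spanned 6.03 log2 units, where 5.07% of all genes passed with strain means at least 1 apart and the median span was 0.28. The other 6 genes spanned 0.20 to 0.47.

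Ttr in kidney was 13.67, 13.91 and 13.83 in AKR/J, 13.44, 13.22 and 13.52 in C3HeB/FeJ and 12.78, 12.42 and 12.89 in A/J. It was 12.67, 12.82 and 12.58 in 129S2, 12.07, 11.95 and 11.71 in C57BL/6J and 7.56, 7.94 and 7.81 in DBA2/J. All DBA2/J arrays lay far below every other array, and apart from A/J and 129S2 no 2 strains overlapped. The F test gave an adjusted p of 1.405e-15. AKR/J exceeded DBA2/J by 6.03 ± 0.13 (SE), a ratio of 65.5, and C57BL/6J, the next lowest strain, exceeded DBA2/J by 4.14 ± 0.13, a ratio of 17.6 (adjusted p = 1.23e-13).

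The remaining strains were graded. AKR/J exceeded C3HeB/FeJ by 0.41 ± 0.13 (adjusted p = 0.0315), C3HeB/FeJ exceeded A/J by 0.69 ± 0.13 (adjusted p = 0.000738) and 129S2 exceeded C57BL/6J by 0.78 ± 0.13 (adjusted p = 0.000243). A/J and 129S2 differed by 0.01 ± 0.13 (adjusted p = 0.973). Of 15 pairs 14 passed, where 18.5% of all pairs did. Leaving out any 1 array left 13 or 14 passing.

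The other 3 Ttr probe sets had the same highest and lowest strain, with AKR/J above DBA2/J by 6.29, 6.80 and 6.51 log2 units. In brain the 4 probe sets spanned 0.14 to 0.29, all with 129S2 lowest, and 3 of 4 passed when every probe set was tested by itself. With 16 arrays the spans were 0.19 to 0.35, again with 129S2 lowest in all 4, and 2 of 4 passed (adjusted p of 0.0202 for the one used, and 0.00749, 0.0506 and 0.0827 for the others). In brain the strain with the highest mean was DBA2/J for 1 of them, C57BL/6J for 2 and A/J for 1. The top of the brain ranking thus varied between probe sets, and its bottom did not.

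**Figure D3:**
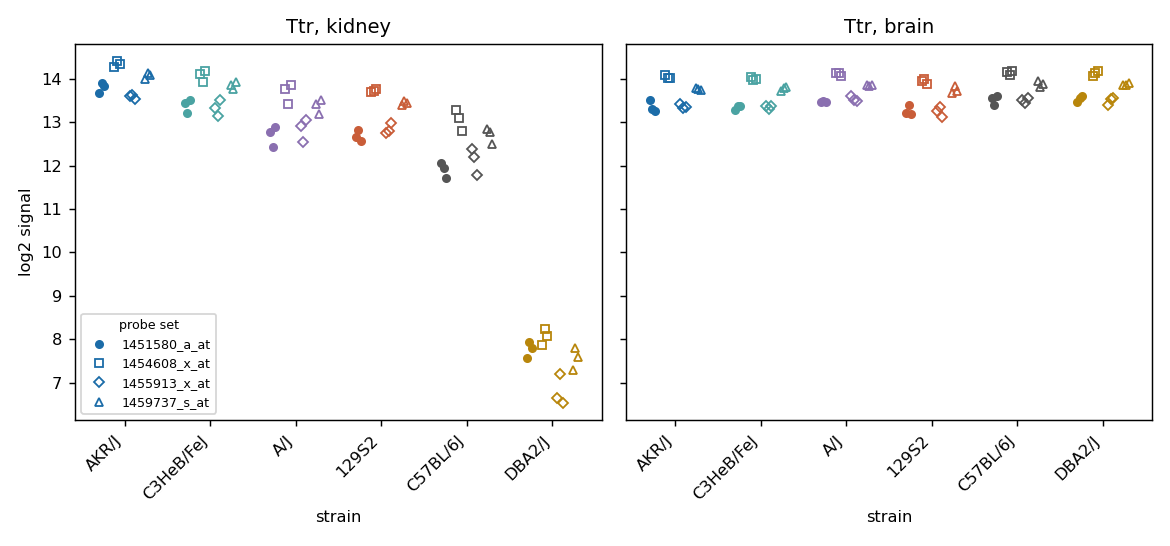
Log2 signal of the 4 Ttr probe sets in each kidney (left) and brain (right) array by strain, with filled circles for the probe set used. The kidney arrays of DBA2/J lie below 9 in every probe set and all other arrays above 11, while all brain arrays lie above 13.

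Folr1 in kidney was 12.60, 12.61 and 12.61 in AKR/J, 12.62, 12.66 and 12.49 in 129S2 and 12.56, 12.48 and 12.65 in C57BL/6J. It was 12.47, 12.48 and 12.49 in A/J, 12.31, 12.33 and 12.40 in C3HeB/FeJ and 12.27, 12.27 and 12.31 in DBA2/J. C3HeB/FeJ and DBA2/J lay below all arrays of the other 4 strains. AKR/J exceeded DBA2/J by 0.32 ± 0.06 (adjusted p = 0.000562), and 7 of 15 pairs passed, each with C3HeB/FeJ or DBA2/J as the lower strain. The F test gave an adjusted p of 0.000434. The extremes of Folr1 in kidney were those of Ttr, but C3HeB/FeJ, next to the highest for Ttr, was next to the lowest for Folr1.

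Clic6 in kidney was 6.41, 6.73 and 6.70 in 129S2, 6.38, 6.39 and 6.49 in C3HeB/FeJ and 6.38, 6.44 and 6.23 in DBA2/J. It was 6.30, 6.20 and 6.42 in AKR/J, 6.12, 6.26 and 6.26 in A/J and 6.11, 6.25 and 6.07 in C57BL/6J. Arrays 129S2 3 and 4 lay above all others, and array 129S2 2 lay among the C3HeB/FeJ arrays. 129S2 exceeded C57BL/6J by 0.47 ± 0.09 (adjusted p = 0.000938), and 5 of 15 pairs passed, 4 of them with 129S2 as the higher strain. Between 3 and 6 passed when single arrays were left out, with 3 without any 1 array of C3HeB/FeJ, without C57BL/6J 10 or 12, 129S2 3 or 4, or AKR/J 1. The F test gave an adjusted p of 0.00372. The second Clic6 probe set also had 129S2 highest, but DBA2/J lowest. Its kidney mean of 3.77 lay far below the array medians of 5.79 to 5.90, so its differences there are to be read with caution.

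Kl in kidney spanned 0.23, from 12.05 ± 0.04 in DBA2/J to 11.82 ± 0.09 in C3HeB/FeJ (SD, n = 3 each). Its F test fell just short (adjusted p = 0.0546 by limma), while the pair of these 2 strains passed at 0.23 ± 0.07 (SE, adjusted p = 0.0215). Without array C57BL/6J 10, AKR/J 3 or C3HeB/FeJ 1 the F test of Kl passed (adjusted p = 0.0256, 0.0281 and 0.0328), and 0 to 3 pairs passed over single omissions, with none without DBA2/J 1 or 3 or C3HeB/FeJ 2 or 3. Kcnj13 spanned 0.21 (adjusted p = 0.465) and Slc4a5 spanned 0.20 (adjusted p = 0.390). Otx2 spanned 0.23 (adjusted p = 0.115), around a mean of 3.30. None of the pairs passed for Kcnj13 and Slc4a5, with 1 and 0 of 15 at an unadjusted p under 0.05 by limma, and 1 passed for Otx2, with 129S2 above DBA2/J by 0.23 ± 0.08 (adjusted p = 0.0436). Otx2 in kidney, at 3.08 to 3.53, and Slc4a5, at 3.40 to 3.87, lay far below the array medians of 5.79 to 5.90, and no detection call was used here, so that their kidney differences cannot be taken as differences in transcript. The Otx2 call depended on single arrays, since 0 to 2 pairs passed for Otx2 over single omissions, and the number changed in 12 of 18. Without C3HeB/FeJ 1 a single pair passed for Kcnj13. Its kidney mean of 5.54 also lay below the array medians, with 33.1% of all genes lower.

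**Figure D4:**
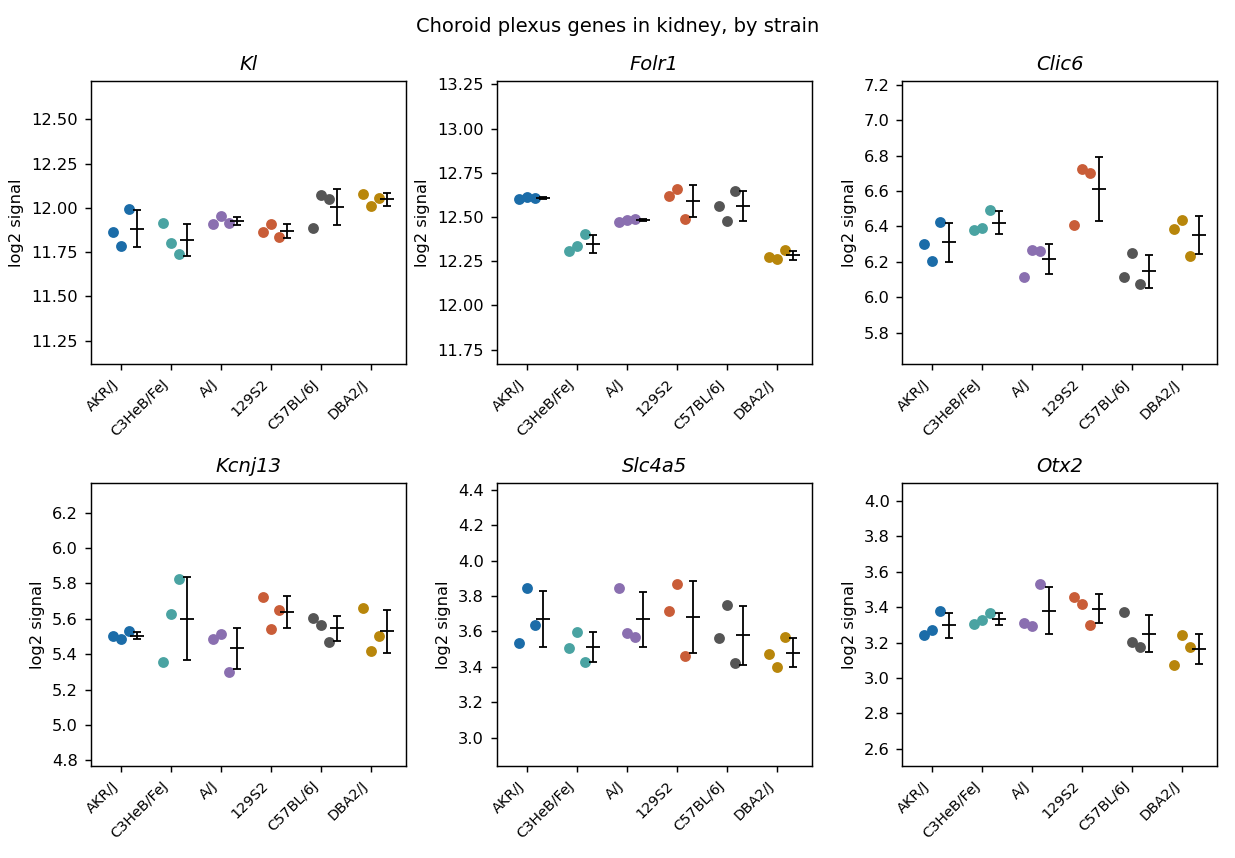
Log2 signal of 6 genes in each kidney array by strain (points) with the strain mean ± SD beside them (n = 3), on axes of equal length. Strain means differ by 0.20 to 0.47 in every panel, and DBA2/J is lowest for Folr1 and highest for Kl.

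Whether strain differences depended on the tissue was tested over the 36 brain and kidney arrays with the animal as a random block. Ttr (adjusted p = 1.20e-23), Folr1 (0.000170), Clic6 (0.00125) and Kcnj13 (0.00721) passed limma's interaction F test, where 36.9% of all genes did. For Ttr, DBA2/J had the lowest mean in kidney and, by the probe set used, the highest in brain. There it did not pass against C57BL/6J, the next strain (adjusted p = 0.911 by limma over strain pairs). For Folr1, 129S2 was the second highest strain in kidney and the lowest in brain. For Kcnj13 the spans were 0.21 in kidney and 0.54 in brain. Its kidney mean of 5.54 lay below the array medians of 5.79 to 5.90, and whether this narrowed the kidney span was not tested. Kl (0.436), Otx2 (0.0862) and Slc4a5 (0.0684) did not pass. Otx2 passed without brain array DBA2/J 1 (adjusted p = 0.00730), A/J 2 (0.0113) or C57BL/6J 3 (0.0306), and Slc4a5 passed without brain array 129S2 1 (0.00881) or kidney array 129S2 4 (0.0269) or A/J 1 (0.0445). With the 34 arrays left without brain arrays AKR/J 2 and 129S2 2, the same 4 genes passed, where 35.3% of all genes did, with adjusted p from 3.55e-22 for Ttr to 0.00313 for Clic6.

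Whether the other genes followed Ttr was first described across the 6 strain means, which share arrays and allow no more than a description. In brain, Pearson's r with Ttr was 0.98 for Kl, 0.92 for Kcnj13, 0.90 for Slc4a5, 0.78 for Folr1, 0.73 for Otx2 and 0.61 for Clic6, over 6 strains. With 16 arrays r was 0.98, 0.90, 0.91, 0.82, 0.82 and 0.55 in the same order. All 6 values of r were thus positive in brain, with spans below 1 log2 unit. With all brain arrays, the share of all genes with a lower r ran from 90.0% for Clic6 to 99.96% for Kl. Otx2 stood at 94.4% and Folr1 at 96.1%. Clic6, Otx2 and Slc4a5 did not pass the F test in brain, so their strain orders are of means not told apart. With 16 arrays, Spearman's rho with Ttr ran from 0.66 for Folr1 and 0.71 for Kcnj13 to 1 for Kl. In kidney r was 0.79 for Otx2, 0.64 for Folr1, 0.64 for Slc4a5, 0.08 for Kcnj13, 0.07 for Clic6 and -0.83 for Kl. The kidney values of r are set mostly by DBA2/J, the strain far from the other 5 for Ttr. Kl was highest in DBA2/J kidney, where Ttr was lowest.

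Within strains, deviations of the 3 arrays from their strain mean were then compared, by a limma fit of each gene on strain and Ttr. In brain the slopes were all positive, where 45.8% of all genes had a positive slope (48.1% with 16 arrays): 1.04 ± 0.33 log2 units per unit of Ttr for Kl, 0.93 ± 0.38 for Kcnj13, 0.72 ± 0.29 for Folr1, 1.39 ± 0.72 for Otx2, 0.40 ± 0.24 for Clic6 and 0.30 ± 0.49 for Slc4a5 (SE). None passed, with adjusted p from 0.613 for Kl to 0.934 for Slc4a5 over 18192 genes, where 0% of all genes did. At an unadjusted p under 0.05 stood 3 of the 6 (Kl, Kcnj13 and Folr1) and 1311 of 18192 genes. With 16 arrays the slopes were 0.62, 0.30, 0.53, 1.54, 0.53 and 0.19 in the same order, all positive, with none passing. The unadjusted p of these 6 genes then ran from 0.0940 for Clic6 to 0.753 for Slc4a5 by limma, with 693 of 18192 genes under 0.05. Without array AKR/J 3 there were 3 genes of 18192 that passed, none of them among the 6, and the slope of Slc4a5 was -0.15 without array 129S2 3.

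The within-strain test had little to work on in brain, where Ttr deviated from its strain means by 0.15 at most. Even the other 3 Ttr probe sets, tested the same way, had slopes of 0.39, 0.59 and 0.40 and adjusted p of 0.688, 0.632 and 0.678 by limma over every single-gene probe set. A missing call for the 6 genes therefore does not show that they varied apart from Ttr. Among the genes themselves, the closest within-strain pair in brain was Folr1 with Kcnj13 (r = 0.66 over 18 arrays), beside Kl with Ttr (r = 0.66) and Kl with Kcnj13 (r = 0.59). With 16 arrays these values were 0.33, 0.46 and 0.00, and the closest pair was Clic6 with Otx2 (r = 0.54).

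**Figure D5:**
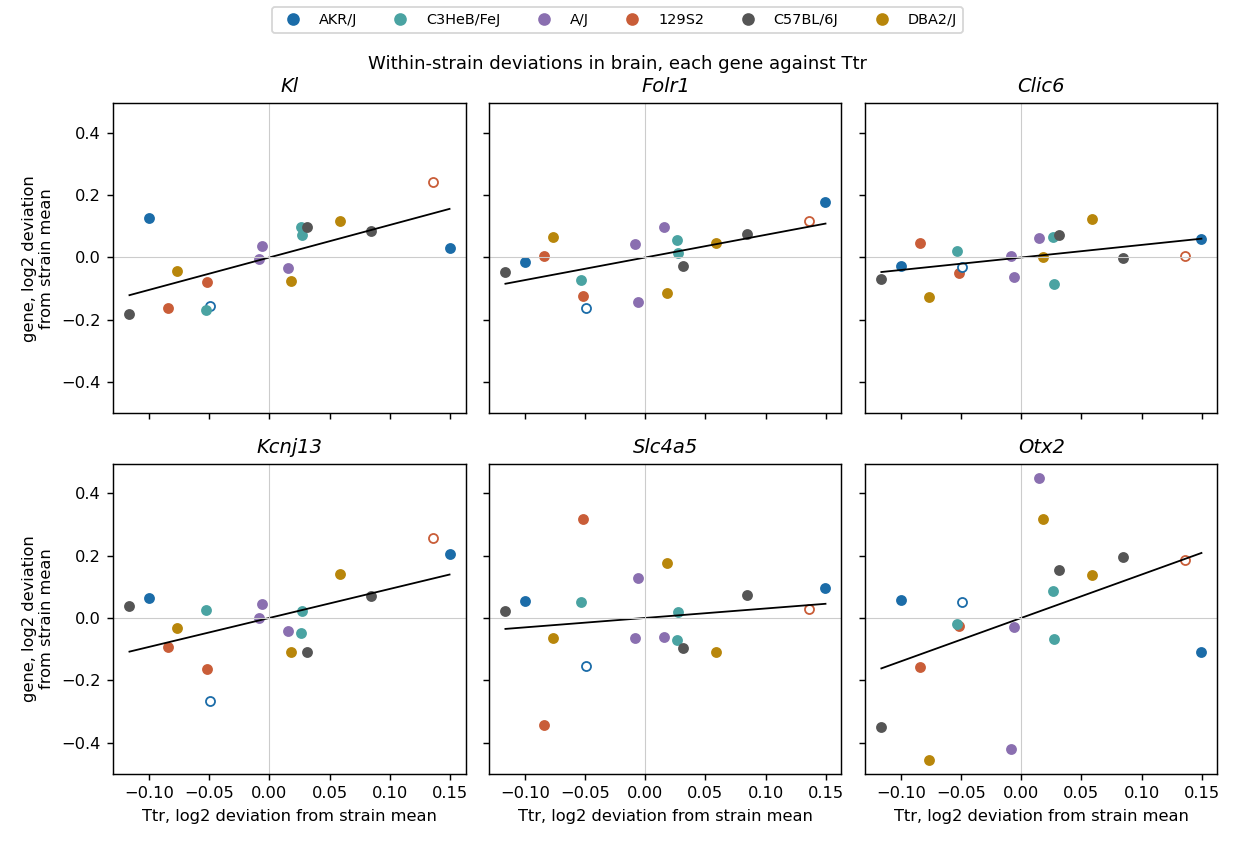
Deviation of each brain array from its strain mean for 6 genes (vertical, log2) against that of Ttr (horizontal, log2), with the fitted slope as a line, colours for strains and open points for arrays AKR/J 2 and 129S2 2. Slopes run from 0.30 for Slc4a5 to 1.39 for Otx2, and the points scatter widely around each line.

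In kidney the slopes on Ttr within strains were -0.12 ± 0.13 for Kl, -0.19 ± 0.20 for Kcnj13, 0.02 ± 0.12 for Folr1, 0.05 ± 0.18 for Clic6, 0.28 ± 0.22 for Slc4a5 and 0.36 ± 0.13 for Otx2 (SE). None passed, nor did any other gene (0% of all genes), and 749 of 18192 genes, Otx2 among them, stood at an unadjusted p under 0.05 by limma. The other 3 Ttr probe sets did not pass in kidney either (adjusted p of 0.124, 1.00 and 0.153 over every single-gene probe set), so that a missing call in kidney likewise does not show that genes varied apart from Ttr. Between AKR/J and DBA2/J kidneys, whose Ttr means differed by 6.03 log2 units, the other 6 genes differed by at most 0.32.

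Genes most like Ttr within strains were, in brain, Prpf39 (r = 0.84), Ryr1 (0.83), Rps9 (0.83), Rsph1 (0.82) and Pfdn2 (0.82), over 18 arrays and among genes with a mean of at least 6. With 16 arrays r was 0.82, 0.80, 0.79, 0.80 and 0.84 in the same order. Rsph1 is a gene of motile cilia, and ependymal cells that line the ventricles carry such cilia. The list of ependymal markers that holds Rsph1 had a median within-strain r with Ttr of 0.25 in brain (0.19 with 16 arrays). In kidney the genes most like Ttr within strains were Susd5 (0.88), Mgmt (0.88), Tmx2 (0.79), Brms1 (0.77) and Gjc1 (0.75). None of these 10 genes passed the slope test. Over the 6 kidney strain means, Rps2 (r = 0.995), Cxcl16 (0.991), Fuca2 (0.988), Nipa1 (0.979) and Neat1 (0.978) were most like Ttr among genes that passed the F test, and these values too rest mostly on DBA2/J. These genes were picked for their likeness, so the values describe them.

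Of 38 other genes listed for the choroid plexus, 36 were measured, and 15 of them passed the F test in brain, where 23.1% of all genes did, with a median span of 0.27 (18 of 36 with 16 arrays, where 27.5% of all genes did, median 0.34). 129S2 had the lowest mean in 8 of those 15 and in 10 of the 18, and A/J the highest in 7 of each. Among all passing genes 129S2 was lowest in 13.0% with 18 arrays and in 20.2% with 16, and A/J was highest in 18.2% with 18 arrays and in a smaller share with 16. Sostdc1, a secreted BMP antagonist, was the one with strain means at least 1 apart, at 7.41 ± 0.10 in A/J and 6.28 ± 0.17 in 129S2 (SD, n = 3 each, adjusted p = 2.59e-06 by limma), and its span was 1.09 with 16 arrays (adjusted p = 5.04e-06). The mean over the 36 genes was 7.04 in A/J, the highest strain, against 6.86 in 129S2, the lowest, and 6.85 in 129S2 with 16 arrays. Deviations within strains went with those of Ttr in 23 of 36 genes in brain (45.8% of all genes), from r = -0.60 for Igf2 to 0.75 for Aqp1, named here after their values were seen. None passed, and 9 stood at an unadjusted p under 0.05 by limma. With 16 arrays 24 of 36 went with Ttr (48.1% of all genes), none passed and 5 stood at an unadjusted p under 0.05, with Igf2 at r = -0.30 and Aqp1 at 0.71. In kidney 26 of 36 passed, where 46.1% of all genes did, with a median span of 0.58, led by the coagulation factor gene F5 (7.86 in DBA2/J, 5.72 in AKR/J), Sostdc1 (9.95 in C57BL/6J, 8.31 in C3HeB/FeJ), Tmem72 (8.18 in C57BL/6J, 6.85 in C3HeB/FeJ) and the carbonic anhydrase gene Car14 (10.84 in 129S2, 9.59 in DBA2/J). The extremes of these 4 genes were not those of Ttr, except that Car14 was also lowest in DBA2/J and F5 ran the other way.

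Partners of transthyretin were counted as 18 measured genes of retinol and thyroid hormone handling. In brain 7 passed, where 23.1% of all genes did, and 6 with 16 arrays, where 27.5% did, none of them with strain means 1 apart, and in kidney 11 did, where 46.1% of all genes did. The widest in kidney were the deiodinase gene Dio1, at 9.48 in AKR/J and 6.37 in C3HeB/FeJ, and the thyroid hormone binding protein gene Crym, at 10.07 in DBA2/J and 7.71 in 129S2. Rbp4, the retinol-binding protein that travels with transthyretin in plasma, was 8.14 ± 0.45 in A/J and 6.74 ± 0.32 in DBA2/J kidney (SD, n = 3 each, adjusted p = 0.00715 by limma). The retinoic acid receptor gene Rarb was 7.95 in 129S2 and 6.70 in A/J. Rbp4 and Ttr were thus both lowest in DBA2/J kidney, and their highest strains differed.

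Markers of other cells were counted beside these results, and their part in them was not tested. Of all genes 23.1% passed in brain, 27.5% did with 16 arrays, and 46.1% did in kidney, which is the share to set beside each count. In brain 3 of 10 ependymal, 5 of 13 meningeal and fibroblast, 5 of 9 oligodendrocyte and 3 of 7 endothelial genes passed, 2 of 10 general brain genes, and 0 of 7 pituitary genes (0 at an unadjusted p under 0.05 by limma). With 16 arrays these counts were 3, 7, 6, 5, 2 and 0 (1 pituitary gene at an unadjusted p under 0.05). Of 4 erythroid genes 1 passed (Alas2, 8.31 ± 1.07 in A/J and 6.96 ± 0.08 in C57BL/6J), and none did with 16 arrays (2 at an unadjusted p under 0.05). The mean over ependymal genes was 6.42 in A/J, the highest strain, against 6.23 in 129S2 and C3HeB/FeJ and 6.24 in C57BL/6J, and that over meningeal genes was 7.73 in A/J, against 7.51 in C57BL/6J. With 16 arrays the ependymal mean was highest in AKR/J at 6.47, against 6.21 in 129S2, the lowest strain, and the meningeal extremes were the same. The lowest strain of the ependymal list with 16 arrays was also that of Ttr and Kl, while neither list had its highest mean in DBA2/J. That strain had the highest mean of Kl and of the Ttr probe set used, but did not pass against C57BL/6J for either. Among general brain genes Slc17a7 spanned most, at 10.98 in C57BL/6J and 9.70 in A/J. Kidney and other markers passed in brain in 2 of 11 kidney, 2 of 10 proximal tubule, 1 of 10 distal tubule, 3 of 7 glomerulus, 3 of 12 liver, 1 of 6 exocrine pancreas, 0 of 6 islet (0 at an unadjusted p under 0.05), 1 of 8 adrenal and 1 of 6 adipose genes, with Alb (6.03 in C57BL/6J, 4.97 in AKR/J) and Lpl (9.99 in C3HeB/FeJ, 8.71 in C57BL/6J) at least 1 apart. With 16 arrays these counts were 4, 3, 2, 2, 3, 1, 0 (1 at an unadjusted p under 0.05), 1 and 1.

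In kidney the lists of its own cells passed in 10 of 11 general, 9 of 10 proximal tubule, 10 of 10 distal tubule and collecting duct and 5 of 7 glomerulus genes, where 46.1% of all genes did. Each gene of the general list also stands on the tubule, collecting duct or glomerulus lists, so these counts overlap. The mean over general kidney markers was 12.06 in DBA2/J, the lowest strain, against 12.44 in AKR/J, the highest, the same extremes as Ttr had. Pvalb (10.41 in 129S2, 8.41 in DBA2/J) and Slc22a8 (12.29 in 129S2, 11.12 in DBA2/J) were lowest in DBA2/J, while Calb1 (12.81 in C57BL/6J, 11.63 in C3HeB/FeJ) and Slc5a12 (12.29 in A/J, 11.25 in C57BL/6J) were not. The cells in which the Ttr signal of kidney arose cannot be read from these arrays.

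Of 12 liver genes, 7 passed in kidney (46.1% of all genes), where their median span was 1.09. Apob was 11.25 ± 0.21 in AKR/J and 8.04 ± 0.14 in A/J, Fgg was 7.77 ± 0.16 in C57BL/6J against 5.04 ± 0.18 in AKR/J, and Fga was 9.02 ± 0.31 in C57BL/6J against 7.32 ± 0.17 in AKR/J (SD, n = 3 each). Serpinc1 was 7.81 ± 0.18 in DBA2/J and 6.04 ± 0.12 in 129S2. The albumin gene Alb, a defining liver marker named here after its values were seen, had its lowest kidney mean in AKR/J at 6.33, where Ttr was highest, and the mean over the 12 genes was 6.06 in DBA2/J and 6.05 in AKR/J, the 2 extremes of Ttr. The highest list mean, 6.55, was that of C57BL/6J. Apob, like Ttr, was highest in AKR/J, while the mean over the list did not order the strains as Ttr did. Whether liver transcripts had a part in the kidney Ttr signal was not tested.

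Kidney lists of other cells passed in 4 of 10 ependymal, 12 of 13 meningeal and fibroblast, 6 of 9 oligodendrocyte, 5 of 7 endothelial, 1 of 4 erythroid, 2 of 10 brain, 1 of 6 exocrine pancreas, 2 of 8 adrenal and 4 of 6 adipose genes, where 46.1% of all genes did. The meningeal and fibroblast list holds Slc22a6, which is also on the general kidney and proximal tubule lists. None of 7 pituitary and none of 6 islet genes passed, with 1 of each at an unadjusted p under 0.05 by limma. The widest spans were those of Hdc, the histidine decarboxylase gene (10.92 in C3HeB/FeJ, 5.28 in C57BL/6J), Aqp4 (10.11 in DBA2/J, 7.57 in A/J), Lum (8.40 in AKR/J, 6.41 in DBA2/J) and Slc6a20a (9.23 in 129S2, 7.55 in C57BL/6J). Smaller spans were those of Retn (8.88 in C57BL/6J, 7.45 in C3HeB/FeJ), Cfap126 (7.53 in C57BL/6J, 6.14 in A/J), Ugt8a (12.14 in C3HeB/FeJ, 10.83 in 129S2), Col3a1 (9.97 in C57BL/6J, 8.71 in 129S2), Lpl (13.64 in C57BL/6J, 12.40 in A/J), Col1a1 (7.96 in C57BL/6J, 6.81 in 129S2) and Fabp4 (12.52 in A/J, 11.49 in DBA2/J). In neither tissue did a gene of any list pass the test of following Ttr within strains.

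The measured genes on either side of Ttr along the chromosome were Dsg1a, Dsg1b and Dsg2, desmosomal cadherins, and B4galt6, Gm31437 and Trappc8. In brain, where 23.1% of all genes passed, 0 of these 6 passed the F test (1 at an unadjusted p under 0.05 by limma), with 18 arrays as with 16. In kidney 3 of 6 passed, near the 46.1% of all genes, and none had the extremes of Ttr: Dsg2 was widest at 1.46, with 129S2 highest and C3HeB/FeJ lowest (adjusted p = 3.14e-10), followed by B4galt6 at 0.67, with C57BL/6J highest and C3HeB/FeJ lowest (adjusted p = 0.000572), and Trappc8 at 0.36, with DBA2/J highest and 129S2 lowest (adjusted p = 0.00412). None of the 3 was lowest in DBA2/J.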

How the data were processed

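RNA of 6 tissues was hybridised to 1-colour Affymetrix arrays, with 3 arrays per strain and tissue. The authors deposited log2 signals per probe set, which RMA made per the submitters' processing notes. Neither its version nor whether tissues were normalized together is given in the sources used here. Of 45101 probe sets, 64 were controls, 932 had several genes and 9160 had none listed, and these were not used, and of the 34945 others 34741 matched the gene table, giving 18193 genes with 1 probe set each. No value was transformed further.

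Strain means were compared within brain and within kidney (18 arrays each) with limma 3.58.1 in R 4.3.3, by a moderated F test over 6 strains, by all 15 pairs, and by the slope on Ttr beside strain. The interaction over both tissues had the animal as a random block (correlation 0.0705), since titles name 14 animals in both tissues, whose deviations correlated between -0.087 and 0.299. P-values were adjusted by Benjamini-Hochberg at 0.05 over all genes (and pairs). Scripts were tested on simulated data. The number of arrays limits the precision, and labels give no scan or extraction batch.

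The members and the lists (other choroid plexus genes, retinol and thyroid hormone handling, and markers of ependymal, meningeal and fibroblast, oligodendrocyte, endothelial, pituitary, erythroid, brain, kidney, proximal tubule, distal tubule and collecting duct, glomerulus, liver, exocrine pancreas, islet, adrenal and adipose cells) were chosen with earlier results of these data known. Named are all members, the 3 genes measured on either side of Ttr, the 5 most like Ttr by each measure (mean of at least 6), and from each list up to 4 genes that passed with strain means at least 1 apart. Genes outside this rule are said to be so where they stand. Some genes stand on several lists. Alternatives were every single-gene probe set, an intensity trend with robust prior, a minimum mean of 6, centred arrays, a replicate block, no strain term, omission of single arrays or strains and, added after seeing the data, omission of brain arrays AKR/J 2 and 129S2 2 and the brightest probe set within a tissue. Same-numbered arrays of different strains did not deviate together (median r of -0.0153 in brain and 0.0742 in kidney).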

Additional observations from a re-analysis of the deposited data

Results flagged for a closer look

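The strain differences of 4 genes were not the same in kidney and in brain by limma's interaction F test with the animal as a random block, with adjusted p over 18193 genes. For Ttr the adjusted p was 1.204e-23, with strain means spanning 6.03 log2 units in kidney and 0.27 in brain, and with DBA2/J lowest in kidney and, by the probe set used, highest in brain. The other Ttr probe sets had C57BL/6J or A/J highest in brain. In brain, though, DBA2/J did not pass against C57BL/6J, the next strain (adjusted p = 0.911 by limma over strain pairs). For Folr1 it was 0.0001695, with spans of 0.32 in kidney and 0.47 in brain, and with 129S2 next to the highest in kidney and lowest in brain. For Clic6 it was 0.001254, with spans of 0.47 in kidney, where 129S2 was highest, and 0.21 in brain, where DBA2/J was highest. These spans are those of the probe set used. A second Clic6 probe set spanned 0.38 in brain and 0.38 in kidney, at means of 8.23 and 3.77. For Kcnj13 the adjusted p was 0.007214, with spans of 0.21 in kidney, where its mean of 5.54 lay below the array medians, and 0.54 in brain. Of all genes 36.9% passed this test.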

How the results depend on the processing

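Most calls kept their direction and side of the threshold, and no result changed sign while called. Testing every single-gene probe set, which adds features by construction, gave 7624 F test calls and 36557 pair calls in brain, 14519 and 84477 in kidney, and 10582 interaction calls. Without a strain term, which lets strain differences into the slope, 79 genes followed Ttr in brain, among them Kl (slope 1.40, adjusted p = 0.0139) and Kcnj13 (slope 1.35, adjusted p = 0.0317), and 721 did in kidney. Leaving out single arrays gave 0 to 3 genes following Ttr in brain and 0 in kidney, 3391 to 4762 F test calls in brain and 7711 to 8237 in kidney, 15632 to 23125 and 45468 to 49115 pair calls, and 6217 to 6895 interaction calls; the cause was not tested. With the array number as a replicate block there were 3949 F test and 18254 pair calls in brain and 8532 and 51712 in kidney, none following Ttr, and the block changed no call of a listed gene's F test; the numbers did not pair the arrays, and 6 of 18 brain and 8 of 18 kidney arrays were nearest to one of their own number. The interaction without the animal block gave 6282 calls, and 6053 with animals taken from source names. The F tests of Folr1 in brain and of Ttr, Folr1 and Clic6 in kidney, and the interactions of Ttr, Folr1, Clic6 and Kcnj13, passed under every alternative run. Kl in kidney also passed with an intensity trend (adjusted p = 0.00606), a minimum mean of 6 (0.0279) or centred arrays (0.0348).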

Other observations

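Ttr signals of heart ran from 5.82 to 7.08 over 18 arrays, with strain means 0.54 apart for the probe set used and 1.45 to 1.87 for the other 3, while those of liver, the brightest tissue, stayed within 14.28 to 14.46 with strain means 0.12 apart. The liver signals of Ttr lay near the array maxima of 14.99 to 15.13. Folr1 strain means in testis spanned 0.54, and those of Clic6 in lung 0.46, as wide as in kidney at 0.47. These values come from tissues whose strain differences were not tested here.

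A second Kl probe set with a mean of 6.86 in kidney had the same extremes as the first, DBA2/J highest and C3HeB/FeJ lowest, with a span of 0.46 against 0.23, and passed limma's F test over every single-gene probe set (adjusted p = 0.00778), where the first did not (adjusted p = 0.0714).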
